A study of Homo sapiens with 11 samples.

Results

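DUSP4, DUSP5, DUSP6, SPRY2, SPRY4, SPRED1, SPRED2, ETV4, ETV5 and EGR1 are genes that the RAS to ERK (MAPK) pathway switches on in many cells, and most of them restrain it. These 10 genes were taken by symbol from an RNA-seq table of 57773 genes, and 9 of them had a mean of at least 1 FPKM (fragment counts scaled by transcript length and by the size of the library) over the 9 libraries, the minimum for testing, which 15179 genes passed. The cells were HCC78, an established lung adenocarcinoma line that carries an SLC34A2-ROS1 fusion and a U2AF1 S34F allele of its own. U2AF1 is the splicing factor that reads the 3′ splice site, and ROS1 is a receptor tyrosine kinase whose fusions signal through MAPK. Derived lines carried a tagged U2AF1 transgene, wild-type (WT) or S34F, that doxycycline induces, and all groups, parental cells included, kept the native S34F allele. There were 2 libraries each of parental cells, WT line without doxycycline (WT dox-), WT line with it (WT dox+) and S34F line with it (S34F dox+), and 1 of uninduced S34F cells (S34F dox-). The study describes the transduced lines as stable subclones, without saying how many stand behind each line. Nothing in the sources read here states whether replicates were separate cultures, so p-values measure the spread between these libraries, which may be technical. The sample labels give the parental cells as without doxycycline, while a supplementary table of the study heads them as with it, and the value of that comparison depends on which holds.

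In the MAPK pathway, an activated receptor loads RAS with GTP, and RAS starts the RAF, MEK and ERK kinase relay. ERK then enters the nucleus, where it activates serum response factor partners and ETS factors that turn on immediate early genes such as EGR1. A second wave of products feeds back: DUSP phosphatases remove phosphate from ERK, and Sprouty (SPRY) and SPRED proteins hold the pathway back at the level of RAS and RAF. Because their RNA follows ERK activity, sets of such genes are widely used to read pathway output in tumours.

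The checks of the design came out as follows. U2AF1 stood at 277.6 and 299.05 FPKM in WT dox+, at 164.44 and 222.76 FPKM in S34F dox+, and between 102.76 and 115.06 FPKM in the other 5 libraries. The sample labels give an S34F percentage of 12 and 14 in WT dox+ and of 62 and 65 in S34F dox+. In the other 5 libraries it was 28 to 33, so both induced lines were away from the parental value of 32. ROS1, the fused kinase, ranged from 8.63 to 37.81 FPKM, and its partner SLC34A2 from 40.11 to 165.51 FPKM, with both parental libraries above all transduced ones for each gene. All 8 epithelial markers passed the minimum (summed level 8480 to 11500 FPKM), against 2 of 5 leukocyte markers (15.5 to 36.4 FPKM), 2 of 5 fibroblast markers (3.44 to 12.4 FPKM) and 0 of the 3 endothelial markers in the table (0.38 to 2.99 FPKM). The 4 dox+ libraries had 15736 to 20896 genes at 1 FPKM or more, and the other 5 had 13661 to 14688, so gene detection moved with doxycycline. Its part in the doxycycline results was not tested.

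EGR1 is a zinc finger transcription factor and a direct ERK output. The 250 bases before its start in the RefSeq table (GRCh38.p14, chr5:138465229-138465478, plus strand) are printed below because they hold both of the serum response factor motifs (CArG boxes, in capitals) found among the member promoters in the table, at 105 to 96 and at 83 to 74 bases before the start.

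EGR1: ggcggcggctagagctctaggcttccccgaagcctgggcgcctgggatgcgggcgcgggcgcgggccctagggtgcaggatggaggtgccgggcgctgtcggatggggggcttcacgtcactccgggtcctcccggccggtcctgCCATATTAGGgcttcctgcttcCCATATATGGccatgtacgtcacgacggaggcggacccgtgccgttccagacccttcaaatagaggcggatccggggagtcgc

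Of the 10 members, 6 had promoters in that RefSeq table, 9 in all because SPRY2 and SPRED2 have several, each 300 bases long from 250 bases before the start. On both strands, a CArG box occurred in 1 of these 9 promoters (EGR1), against 1.29% of all 35116 promoters. The ETS core CCGGAA occurred in 1 of them (SPRY2), against 17.2% of all. The AP-1 motif TGACTCA occurred in 1 (SPRED2), against 4.95% of all, and the cAMP response element TGACGTCA in 0, against 1.85%. These are matches of letters in short windows, and nothing in the RNA-seq data bears on binding at them.

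The 10 genes spanned a wide range of abundance. On the FPKM scale, which corrects for length, EGR1 was the highest (median 70.1, 57.7 to 151.02), followed by DUSP5 (23.9, 15.46 to 33.76), SPRED2 (11.6, 9.78 to 18.27), SPRED1 (10.1, 8.5 to 15.69) and ETV5 (7.27, 3.96 to 15.55). SPRY2 (median 5, 3.49 to 6.14), DUSP6 (2.34, 0.76 to 4.38), SPRY4 (1.19, 0.67 to 2.41) and ETV4 (1.16, 0.27 to 1.87) were low. DUSP4, a nuclear ERK phosphatase, was at or near 0 in all 9 libraries (0.09 to 0.34 FPKM) and was not tested. From DUSP5 down to ETV4, each gene's range over the libraries overlapped that of the next. Library by library, DUSP5 was above SPRED2, ETV5 above SPRY2 and SPRY2 above DUSP6 in all 9 libraries. The other neighbours among these genes changed order between libraries. The lowest EGR1 value was above the highest DUSP5 value, and the highest DUSP4 value was above only the lowest of ETV4.

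**Figure D1:**
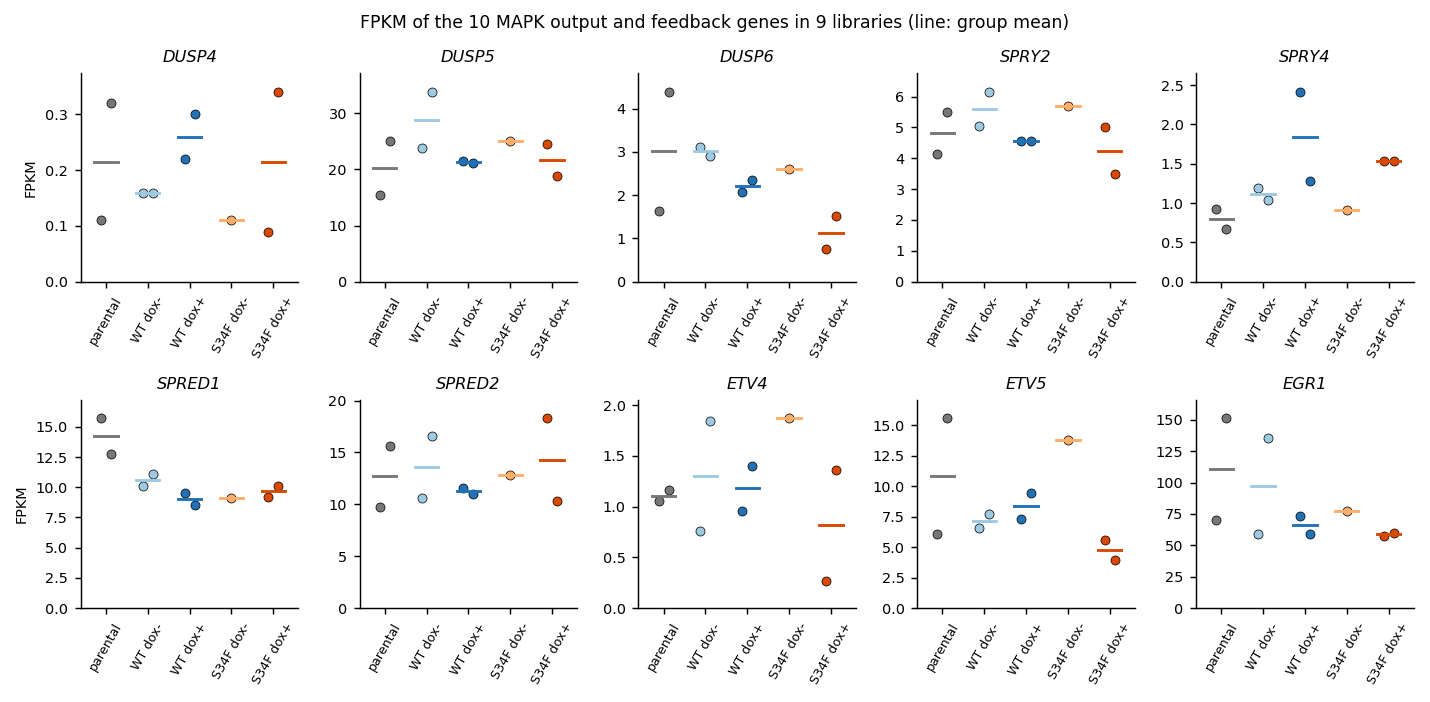
FPKM of the 10 genes in each of the 9 libraries, with 1 panel a gene, points for libraries, a line for the group mean and axes from 0 that differ between panels. SPRED1 was highest in the 2 parental libraries, DUSP6 was lower in all 4 dox+ libraries (0.76 to 2.34) than in the 3 transduced dox- libraries (2.61 to 3.12), and the parental pair was far apart for EGR1, ETV5 and DUSP6.

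The parental libraries were far apart for several output genes. EGR1 was at 70.09 and 151.02 FPKM, ETV5 at 6.05 and 15.55 FPKM, and DUSP6 at 1.64 and 4.38 FPKM in parental replicates 1 and 2. Parental replicate 2 was above replicate 1 for 8 of the 10 members, against 49.4% of all tested genes. On FPKM + 1 it was over 1.5-fold above for 5 of the 10, against 7.1% of all tested genes. WT dox- had a similar gap for EGR1 (58.83 and 135.59 FPKM) but not for ETV5 (6.54 and 7.72 FPKM) or DUSP6 (3.12 and 2.91 FPKM). The parental pair thus differed 2.67-fold for DUSP6 and 2.57-fold for ETV5, before any comparison between groups.

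Transduced cells were set against parental cells first, to ask whether pathway output differed between them. The transduced side pooled dox+ and dox- libraries. Transduction, the subclone, doxycycline and induced U2AF1 thus cannot be told apart in this comparison. None of the 9 tested members was called at a limma adjusted p under 0.05, with 1 at an unadjusted p under 0.05. Of all tested genes, 0.112% were called and 12.4% had such an unadjusted p. The members' log2 differences had a median of 0.04, with 5 higher and 4 lower, and the median of all tested genes was 0.03.

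SPRED1, an inhibitor that brings neurofibromin to RAS at the membrane, was the member with the lowest p in this comparison. It was at 15.69 and 12.76 FPKM in the parental cells, at 10.12 and 11.11 in WT dox-, at 9.5 and 8.5 in WT dox+, at 9.09 in S34F dox- and at 9.22 and 10.1 in S34F dox+. All 7 transduced libraries lay below both parental ones, a pattern found for 4.66% of all tested genes. On log2(FPKM + 1) the difference was -0.52 (95% interval -0.82 to -0.23, limma unadjusted p = 0.00381, adjusted p = 0.18), with means of 9.66 ± 0.856 FPKM (SD, n = 7) and 14.2 ± 2.07 FPKM (SD, n = 2). SPRED1 thus differed at the level of a single test but did not pass the adjustment over all genes. Without parental replicate 1 its difference was -0.38 (limma unadjusted p = 0.0518), and DUSP6, ETV5 and EGR1 were then the members with an unadjusted p under 0.05 (0.0363, 0.00946 and 0.0404, limma adjusted p of 0.462 to 0.555). Without parental replicate 2 they were SPRED1 (-0.66) and DUSP5 (0.60).

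EGR1 and DUSP6 showed how little the parental pair can fix. Transduced cells held EGR1 at 74.5 ± 28.1 FPKM (SD, n = 7) and parental cells at 111 ± 57.2 FPKM (SD, n = 2), a log2 difference of -0.51 (95% interval -1.33 to 0.30, limma adjusted p = 0.601). For DUSP6, the cytoplasmic ERK phosphatase, the log2 difference was -0.26 (-0.97 to 0.45, limma adjusted p = 0.772). The sign rested on which parental library was kept: the EGR1 difference was -1.06 without replicate 1 and 0.04 without replicate 2, and that of DUSP6 was -0.78 and 0.25. ETV5, an ETS transcription factor, went the same way, at -0.89 and 0.34. DUSP5, a nuclear ERK phosphatase, did too, at -0.07 and 0.60.

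The remaining members gave small or uncertain differences against parental cells. SPRY4 was at 0.93 and 0.67 FPKM in the parental cells and at 0.91 to 2.41 FPKM in transduced cells, with a log2 difference of 0.37 (-0.28 to 1.01). SPRY2, SPRED2 and ETV4 differed by 0.05, 0.04 and 0.07. Without doxycycline, the transduced lines against parental cells gave 0 of 9 members called and 1 at an unadjusted p under 0.05, against 0.244% and 13.1% of all tested genes. The other 8 had log2 differences of 0.41 (DUSP5), 0.27 (ETV4), 0.20 (SPRY2), 0.16 (SPRY4), 0.07 (SPRED2), 0.02 (ETV5), 0.01 (DUSP6) and -0.30 (EGR1). The member with the low p was again SPRED1 (log2 difference -0.49, 95% interval -0.83 to -0.15, limma adjusted p = 0.232), and the comparison shares its parental libraries and 3 transduced ones with the first.

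**Figure D2:**
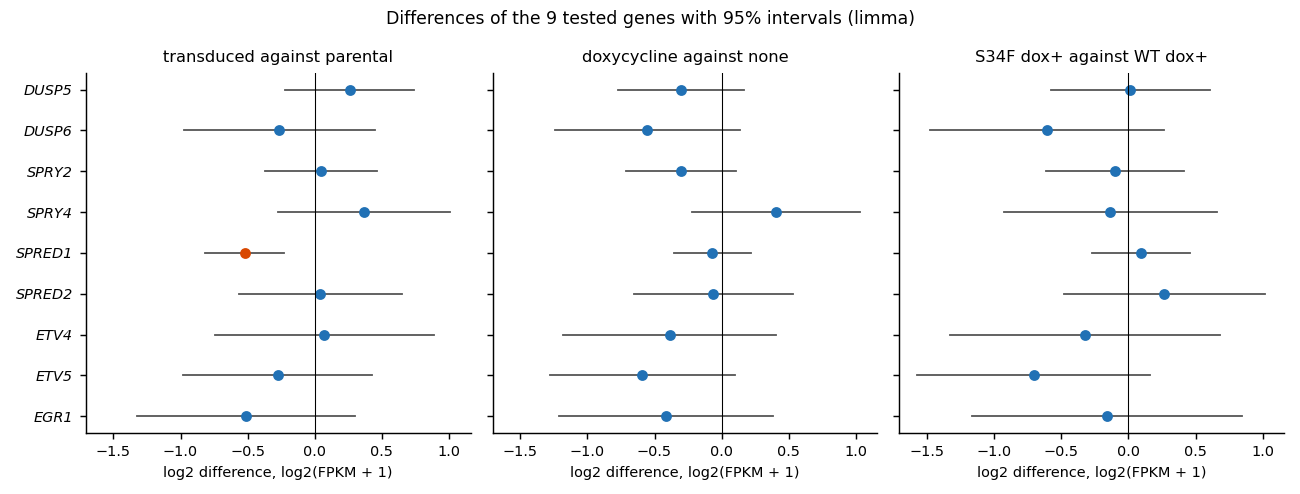
Log2 differences of the 9 tested members on log2(FPKM + 1) in 3 comparisons, with limma 95% intervals, where orange marks an unadjusted p under 0.05. The interval of SPRED1 against parental cells (-0.82 to -0.23) is the one that lies off 0.

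Doxycycline was set against none within the transduced lines, 4 libraries against 3, to ask how the members moved when U2AF1 of either kind was induced. By the sample labels no cells without a transgene received doxycycline. The drug itself and the induced U2AF1 therefore cannot be told apart in any doxycycline result here. None of the 9 tested members was called by limma, and none had an unadjusted p under 0.05. Of all tested genes, 3.88% were called (424 higher and 165 lower) and 25.1% had such an unadjusted p, and with TPM in place of FPKM the called genes split into 287 higher and 219 lower. Of the members, 8 of 9 had a value below 0, where 41.5% of all tested genes did, and their median log2 difference was -0.30 beside 0.08 for all tested genes. Each of those 8 values had an interval that includes 0.

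The phosphatase DUSP6 and the Sprouty protein SPRY2 were lower in every dox+ library than in every transduced dox- library. DUSP6 stood at 0.76, 1.51, 2.07 and 2.34 FPKM with doxycycline and at 2.61, 2.91 and 3.12 FPKM without. Its log2 difference was -0.55 (95% interval -1.24 to 0.14, limma adjusted p = 0.287). SPRY2 stood at 5, 3.49, 4.57 and 4.56 FPKM with doxycycline and at 5.7, 5.05 and 6.14 FPKM without, a difference of -0.30 (-0.71 to 0.10, limma adjusted p = 0.318). Non-overlap in this direction was found for 2 of 9 members and for 9.76% of all tested genes. The nearest values of the groups were 2.34 and 2.61 FPKM for DUSP6 and 5 and 5.05 FPKM for SPRY2.

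SPRY4, the other Sprouty gene, went the other way. It was at 1.54 FPKM in both S34F dox+ libraries, at 2.41 and 1.28 FPKM in WT dox+, and at 0.91, 1.19 and 1.04 FPKM in the dox- libraries. The groups did not overlap (15.2% of all tested genes were higher without overlap), and the log2 difference was 0.41 (-0.22 to 1.03, limma adjusted p = 0.381). Under quantile normalization its sign turned, to -0.06. SPRY4 was close to the minimum for testing, where the precision cannot be stated because FPKM gives no depth.

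ETV5 and its relative ETV4, ETS factors of the PEA3 group, had values below 0 with doxycycline in the pooled lines, but ETV5 had opposite signs in the lines. In the WT line ETV5 was at 6.54 and 7.72 FPKM without doxycycline and at 7.27 and 9.46 FPKM with it, a log2 difference of 0.20 (-0.67 to 1.07). In the S34F line it was at 13.82 FPKM in the 1 library without doxycycline and at 5.54 and 3.96 FPKM with it, a difference of -1.38 (-2.45 to -0.31, limma adjusted p = 0.236). The pooled difference was -0.59 (-1.28 to 0.10, limma adjusted p = 0.257). ETV4 gave -0.39 (-1.18 to 0.41), with values from 0.27 to 1.87 FPKM that overlapped between groups. With 1 library left out it ran from -0.61 to -0.05. The -0.05 is the WT line alone, which is all that remains to compare without the S34F dox- library.

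DUSP5, EGR1, SPRED1 and SPRED2 overlapped between dox+ and dox- libraries. DUSP5 was at 21.5 ± 2.3 FPKM with doxycycline (SD, n = 4) and 27.5 ± 5.41 FPKM without (SD, n = 3), and EGR1 at 62.4 ± 7.18 and 90.6 ± 40 FPKM. Their log2 differences were -0.30 (-0.77 to 0.17) and -0.41 (-1.21 to 0.38). Leaving out 1 library moved that of EGR1 between -0.71 and -0.12. Those of SPRED1 and SPRED2, which act on RAS and RAF, were -0.07 (-0.36 to 0.22) and -0.06 (-0.65 to 0.53). The intervals of DUSP6, ETV4, ETV5 and EGR1 reached below -1 on this log2 scale, so these libraries do not show that the members stayed level.

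**Figure D3:**
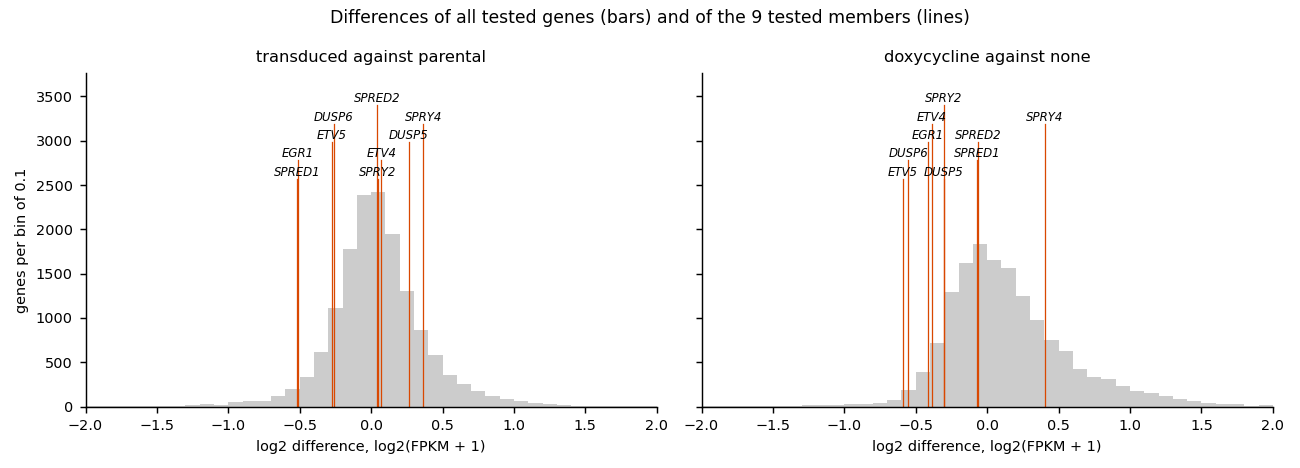
Bars count all tested genes by log2 difference on log2(FPKM + 1), in bins of 0.1 between -2 and 2, and orange lines mark the 9 tested members. Against parental cells the members lie on both sides of 0, and with doxycycline 8 of 9 lie below 0, beside a median of 0.08 for all tested genes.

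S34F dox+ was set against WT dox+, 2 libraries against 2, to compare the 2 transgenes at induced levels. U2AF1 was at 164.44 and 222.76 FPKM in S34F dox+ and at 277.6 and 299.05 FPKM in WT dox+. The S34F change, the U2AF1 level and the line thus cannot be told apart. No member was called by limma and none had an unadjusted p under 0.05, against 0.0527% and 6.78% of all tested genes. DUSP6 was at 0.76 and 1.51 FPKM in S34F dox+ and at 2.07 and 2.34 FPKM in WT dox+ (log2 difference -0.61, 95% interval -1.48 to 0.27, limma adjusted p = 0.803). ETV5 was at 5.54 and 3.96 FPKM against 7.27 and 9.46 FPKM (-0.71, -1.58 to 0.16, limma adjusted p = 0.772). These were the 2 members lower without overlap, a pattern of 15.3% of all tested genes. EGR1 was close in the induced lines, at 57.7 and 59.77 FPKM in S34F dox+ and at 73.14 and 59.16 FPKM in WT dox+ (-0.16, -1.17 to 0.85), and the other 6 members gave -0.33 (ETV4), -0.13 (SPRY4), -0.10 (SPRY2), 0.01 (DUSP5), 0.09 (SPRED1) and 0.27 (SPRED2).

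Over both doxycycline states, the S34F line against the WT line gave 0 of 9 members called by limma and 0 at an unadjusted p under 0.05, against 0.119% and 5.96% of all tested genes. DUSP6 gave -0.38 (95% interval -1.07 to 0.31), and the other members -0.18 (EGR1), -0.14 (SPRY4), -0.08 (DUSP5), -0.05 (SPRED1), -0.04 (SPRY2), 0.02 (ETV4), 0.08 (ETV5) and 0.11 (SPRED2). The difference of the doxycycline responses, S34F line minus WT line, was called for 0 of 9 members, with 1 at an unadjusted p under 0.05, against 0.0264% and 3.42% of all tested genes. That member was ETV5, with a difference of -1.58 (-2.95 to -0.20, limma unadjusted p = 0.0297, adjusted p = 1). It rests on the single S34F dox- library, which can be given no spread of its own and is assumed to vary like the other groups. SPRED1 was lower in both WT dox+ libraries (9.5 and 8.5 FPKM) than in both WT dox- ones (10.12 and 11.11 FPKM) and slightly higher in both S34F dox+ libraries (9.22 and 10.1 FPKM) than in the S34F dox- one (9.09 FPKM). Opposite moves of this kind were found for 4.95% of all tested genes. The test of that difference gave 0.29 (-0.28 to 0.87, limma adjusted p = 1). The other members gave -0.68 (ETV4), -0.45 (DUSP6), -0.13 (SPRY2), 0.01 (SPRY4), 0.04 (EGR1), 0.19 (DUSP5) and 0.31 (SPRED2).

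Among other output genes of the pathway, several fell with doxycycline. Of 19 tested genes of that list, which holds AP-1 subunits, receptor ligands and cell cycle genes, 6 fell and 0 rose at a limma adjusted p under 0.05, and 10 were lower at an unadjusted p under 0.05. Of all tested genes, 1.09% were called lower and 9.22% were lower at an unadjusted p under 0.05. The list's median log2 difference was -0.45, beside 0.08 for all tested genes. Against parental cells, 0 of the 19 were called and 2 were higher at an unadjusted p under 0.05. In either direction, 0.112% of all tested genes were called there and 12.4% had such an unadjusted p. The list was chosen with earlier results of these data known. Gene detection was higher in the dox+ libraries throughout, and its part was not tested.

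FOSL1, an AP-1 subunit whose protein ERK stabilises, was at 126.91, 157.37, 133.96 and 151.64 FPKM in the dox+ libraries and at 310.56, 282.97 and 366.81 FPKM in the transduced dox- libraries, with parental cells at 151.21 and 183.32 FPKM. Its level in dox+ libraries was thus near that of parental cells, and the dox- libraries stood above both. The doxycycline difference was -1.21 (SE 0.12, limma adjusted p = 0.0066), and that of the uninduced transduced lines against parental cells was 0.98 (95% interval 0.66 to 1.30, limma adjusted p = 0.051). CCND1, which encodes cyclin D1, was at 84.12 and 88.76 FPKM in WT dox+, at 60.77 and 62.41 in S34F dox+, at 116.71 to 135.73 in the dox- libraries, and at 87.42 and 90.88 in parental cells (doxycycline difference -0.78, SE 0.07, limma adjusted p = 0.0066).

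The EGFR ligand genes AREG and EREG were lower in all dox+ than in all transduced dox- libraries. AREG was at 33.34 to 53.27 FPKM with doxycycline and at 75.42 to 113.18 FPKM without (log2 difference -1.20, SE 0.20, limma adjusted p = 0.0298). EREG was at 7.61 and 8.58 FPKM in S34F dox+, at 15.36 and 18.7 in WT dox+, and at 21.84 to 30.74 in the dox- libraries (-1.16, SE 0.17, limma adjusted p = 0.0199). Between the induced lines EREG differed by -0.98 (limma unadjusted p = 0.00191, adjusted p = 0.439), which did not pass. The other 2 genes called were EPHA2 and IER3, named after their values were seen. With the S34F dox- library left out, only the WT line was compared, so that setting equals the WT line alone. The count of 6 fell to 0 when the S34F dox- library or either WT dox+ library was left out, to 1 (CCND1) without WT dox- replicate 1, to 2 (CCND1 and FOSL1) without S34F dox+ replicate 1 or without replicate 2, and to 3 without WT dox- replicate 2. Without either of the parental libraries, which enter only the estimate of the spread, it was 4. Within the WT line it was 0 and within the S34F line 2.

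**Figure D4:**
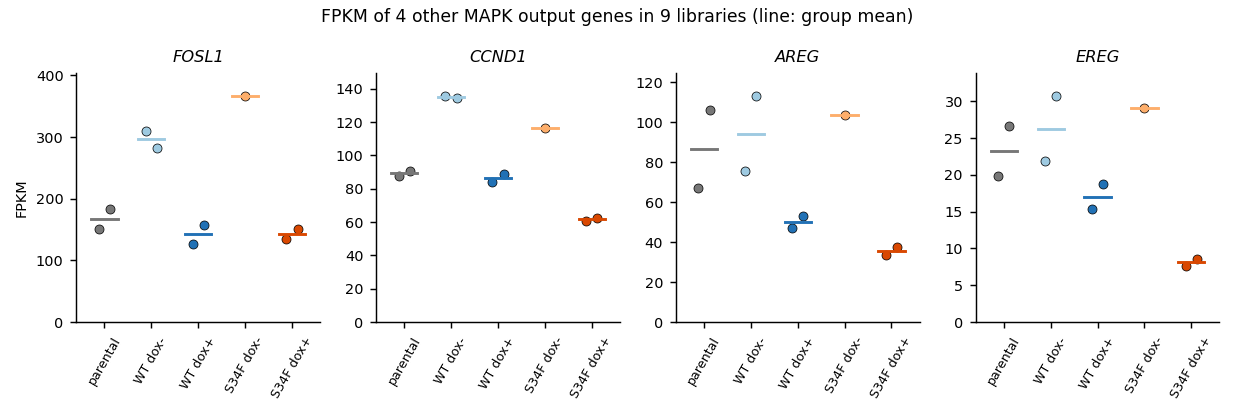
FPKM of FOSL1, CCND1, AREG and EREG in each library, with a line for the group mean and axes from 0. In each panel the 4 dox+ libraries lie below the 3 transduced dox- libraries, for FOSL1 at 126.91 to 157.37 against 282.97 to 366.81 FPKM.

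In the cascade itself a few genes rose with doxycycline. Of 22 genes from adaptors to RSK kinases, 3 rose and 0 fell with doxycycline at a limma adjusted p under 0.05. Without adjustment, p was under 0.05 for 7 higher and 5 lower genes. Among all tested genes, 2.79% were called higher and 1.09% lower. Without adjustment, 15.9% were higher and 9.22% lower at that threshold. The 3 were NF1, the RAS GTPase activator that SPRED1 recruits (log2 difference 0.70, limma adjusted p = 0.0231), the kinase BRAF (0.71, limma adjusted p = 0.042) and the exchange factor SOS2 (0.55, limma adjusted p = 0.0498). GAB1, a docking protein, gave 0.66 (limma adjusted p = 0.0559). Here too, leaving out the S34F dox- library left the WT line alone. The count of 3 fell to 0 without the S34F dox- library, S34F dox+ replicate 2, WT dox- replicate 1, either WT dox+ library or either parental one, to 1 (NF1) without WT dox- replicate 2, and to 2 without S34F dox+ replicate 1. It was 0 within each line alone. Against parental cells 0 of the 22 were called, and unadjusted p was under 0.05 for 2 higher and 2 lower genes. The shares of all tested genes were 0.112% and 12.4%, in either direction.

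Of the other feedback regulators, 9 of 13 were tested and 0 were called in either comparison. DUSP16, a phosphatase that acts mainly on JNK and p38, gave 0.77 (limma adjusted p = 0.0859) and DUSP14 gave -0.41 (limma adjusted p = 0.0949) with doxycycline. Of 8 ETS, SRF and repressor genes, 0 were called in either comparison, and ETS1 gave 0.44 against parental cells (limma adjusted p = 0.279) and -0.47 with doxycycline (limma adjusted p = 0.0927). Between S34F dox+ and WT dox+, 0 genes of these lists were called. At an unadjusted p under 0.05 there were 1 of the cascade, 3 of the other output genes and 0 of the remaining lists. Of all tested genes, 0.0527% were called in that comparison and 6.78% had such an unadjusted p.

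The 5 genes whose log2(FPKM + 1) followed DUSP6 most closely over the 9 libraries were sought among 10024 with a mean of at least 5 FPKM. They were CNOT10 (Pearson's r 0.953), AC015987.2 (0.948), SYMPK (0.945), DNAJC19 (0.944) and CANT1 (0.926). The libraries share groups, and no other member was among these 5. SPRY2, SPRY4, ETV4 and DUSP4 averaged under 5 FPKM and so could not be among them. CNOT10, for example, was lowest at 9.9 FPKM in S34F dox+ replicate 1 and highest at 18.21 FPKM in parental replicate 2, the libraries where DUSP6 was lowest and highest.

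Splicing of the members was read from event tables that give 1 percent spliced in (PSI, as a fraction) and 1 number of reads a side for mutant against wild-type. The sides were taken as S34F dox+ and WT dox+: over 12180 genes the ratio of their reads followed the FPKM ratio of these groups (Spearman's rho 0.489) more than that of the dox- groups (0.112). Each side is a single value, so there is no replicate error and no test. The tables held 35 events in 8 members and none in DUSP4 or EGR1, and 34 had at least 10 reads over both sides. PSI differed by 0.10 or more in 10 of the 34, against 32.8% of all events with that many reads. With at least 100 reads on each side, it did so in 1 of 11, against 24.1%.

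DUSP6 held the event with the largest shift among the members. Its skipped exon (hg19, chr12:89743338-89745417, minus strand, the span from the acceptor of the next exon to the donor of the one before) had a PSI of 0.43 in S34F dox+ and of 0.93 in WT dox+, from 61 and 112 reads. Inclusion of the exon was thus lower by 0.50 in S34F dox+. Of all 6340 skipped exons with 100 to 300 reads over both sides, a window chosen after this value was seen, 0.852% were apart by 0.50 or more. DUSP6 was also lower in FPKM in both S34F dox+ libraries than in both WT dox+ ones, and its reads were fewer on the S34F side, as were those of genes in general (median ratio of S34F to WT reads 0.686 over the 12180 genes).

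The ETS genes had most events, with few reads. All 14 ETV4 events had PSI values between 0.31 and 0.78, and 10 of them carried the same 27 and 56 reads, so these numbers are not counts of reads at 1 splice site. ETV5 had 7 events, of which an alternative donor (hg19, chr3:185823144-185823238, minus strand) was at 0.76 in S34F dox+ and 0.91 in WT dox+ from 105 and 189 reads, the 1 event past 0.10 with 100 reads on each side. In the better covered genes PSI hardly differed: the DUSP5 exon was at 0.05 and 0.03 (759 and 1115 reads), the SPRED1 exon at 0.05 and 0.03 (564 and 1000 reads), and the 3 skipped exons of SPRED2 differed by -0.02, 0.01 and 0.04. The SPRY2 tandem acceptors, whose sites lie 3 bases apart, differed by -0.04, -0.17 and -0.03, and the 2 SPRY4 events kept by -0.09 and 0.09.

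**Figure D5:**
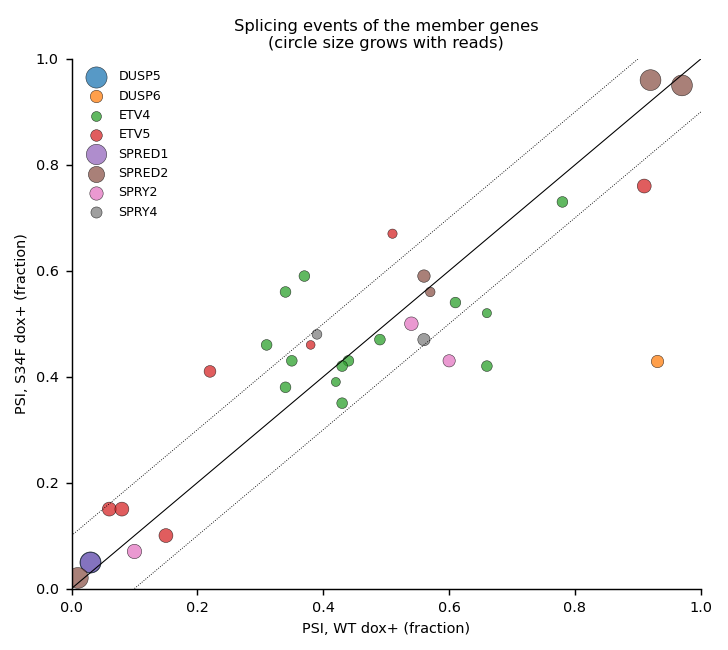
PSI of the 34 events of the member genes in S34F dox+ against WT dox+, with circle area growing with reads, the solid line at equal PSI and dotted lines 0.10 to either side. The DUSP6 exon lies far below the line, at 0.43 against 0.93, and the events of DUSP5, SPRED1 and SPRED2 with the most reads lie on it.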

How the data were processed

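RNA-seq libraries were made from total RNA with a stranded kit. The deposited table gives FPKM and TPM per gene; the submitters' processing notes name STAR 2.3.0 and RSEM 1.2.29 among their tools, and hg19, GRCh37, hg38 and GRCh38 among builds, without a role for each. FPKM holds no read totals, so depth per library is unknown and low genes have a precision that cannot be stated. Differences were fitted on log2(FPKM + 1) for the genes that averaged 1 FPKM or more, with limma fitted once to 5 groups and an intensity trend, two-sided, with Benjamini-Hochberg adjustment over 15179 genes. Fitted differences weight groups equally where lines were pooled, while printed means ± SD are over libraries. The log2(FPKM + 1) scale understates changes of low genes. The fit was tested on simulated data. TPM served as an alternative.

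Splicing tables, deposited per event, hold PSI as a fraction and whole-number counts of reads, made by the authors with MISO. Whether the replicates of a side were pooled is not given in the sources used here. The authors' own comparison columns (PSI change, Bayes factor) were not used, and 2220 events with several isoforms were left out. Each FPKM and TPM column was matched to a listed sample by its label, while the sides of the splicing tables were matched only to groups. Event positions do not match GRCh38 genes and were read as hg19. The iCLIP samples were not analysed here.

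The members, gene lists and tests were chosen with earlier results of these data known. All members are named in each comparison, as are up to 4 genes of each other list with the lowest p among those with an unadjusted p under 0.05 against parental cells or with doxycycline, and the 5 genes most like DUSP6. Other pseudocounts, minimums, scalings, left-out libraries, single lines and a replicate block were tried. limma 3.58.1 in R 4.3.3 and pandas 2.3.3 in Python 3.11.15 were used.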

Additional observations from a re-analysis of the deposited data

Results flagged for a closer look

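SPRED1 was picked out because its libraries moved in opposite directions with doxycycline in the WT and S34F lines, without overlap in either. Both WT dox+ libraries were below both WT dox- ones, and both S34F dox+ libraries were above the single S34F dox- one. Such opposite moves were found for 4.95% of all tested genes. Lying wholly to one side of 1 library is an easy condition, and 8 of the 9 members tested met it. The share of all tested genes that met it was not computed, so that count is not a result about the members. The difference of the responses, S34F line minus WT line, was 0.29 on log2(FPKM + 1), and its limma test did not pass (unadjusted p = 0.27, adjusted p = 1). The groups held 1 or 2 libraries, too few to ask whether any library stood apart from the rest of its group.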

How the results depend on the processing

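The number of members called stayed at 0 in each of the 6 comparisons under every alternative run, with a lowest limma adjusted p of 0.123 over 117 fits. Of 527 member values set against the reported ones, the setting moved 355, of which 322 kept their sign and 33 turned; the rest came from settings that leave the value as it is. The causes were not tested. Quantile normalization gave -0.028 for SPRY2 and -0.076 for ETV4 against parental cells, -0.064 for SPRY4 with doxycycline, and -0.021 for DUSP5 between the induced lines. TPM gave -0.10 for DUSP5 and -0.013 for SPRED1 between the induced lines, and median-ratio scaling -0.0074 for DUSP5. In the WT line alone SPRED2 was -0.016 against parental cells and ETV5 0.20 with doxycycline, and in the S34F line alone SPRED1 was 0.078 and SPRED2 0.092 with doxycycline. TPM moved the median of all tested genes against parental cells from 0.03 to 0.11, and dropping the FPKM minimum moved that with doxycycline from 0.08 to 0.16, while quantile normalization gave -0.04 and a minimum of 5 FPKM -0.01. With doxycycline, a pseudocount of 0.1 and quantile normalization gave -0.82 and -0.93 for DUSP6 and -0.73 and -0.82 for ETV4, a pseudocount of 0.1 gave 0.66 for SPRY4, and quantile normalization -0.55 for SPRY2.

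With 1 library left out at a time, values against parental cells ran from -0.071 to 0.60 for DUSP5, -0.78 to 0.25 for DUSP6 and -1.06 to 0.037 for EGR1. They ran from -0.053 to 0.18 for ETV4, -0.89 to 0.34 for ETV5, -0.27 to 0.35 for SPRED2 and -0.12 to 0.22 for SPRY2. SPRED1 (-0.66 to -0.38) and SPRY4 (0.26 to 0.47) kept their sign. With doxycycline the values ran from -0.69 to 0.20 for ETV5 and -0.25 to 0.13 for SPRED2. Without a change of sign they ran from -0.68 to -0.33 for DUSP6, -0.71 to -0.12 for EGR1 and -0.61 to -0.05 for ETV4. DUSP5 (-0.42 to -0.18), SPRY2 (-0.41 to -0.20), SPRY4 (0.26 to 0.55) and SPRED1 (-0.22 to -0.03) also kept their sign. The 0.20 of ETV5, the -0.33 of DUSP6, the -0.05 of ETV4 and the -0.22 of SPRED1 came from leaving out the S34F dox- library. That setting compares the WT line alone, so these ends are not pooled values. Between the induced lines they ran from -0.17 to 0.19 for DUSP5, -0.77 to 0.12 for ETV4, -0.12 to 0.65 for SPRED2, -0.31 to 0.11 for SPRY2 and -0.42 to 0.16 for SPRY4.

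Over all tested genes the doxycycline calls fell from 424 higher and 165 lower to 1 and 1 without the S34F dox- library, and to 6 and 4 without WT dox+ replicate 2. Without that S34F dox- library only the WT line was compared. The replicate block gave 0 members called in each comparison, and 197 higher and 45 lower genes with doxycycline. The numbers did not pair the libraries: deviations of same-numbered libraries correlated at -0.0756 to 0.0374. With at least 100 reads on each side, 1 member event in place of 10 was apart by 0.10 or more in PSI. The member intervals, many over 1 log2 unit wide, and the unknown depth set the limit.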

Other observations

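DUSP4, below the minimum for testing, was also fitted with all genes above 0 included. Its log2 difference was -0.03 against parental cells and 0.12 with doxycycline (limma adjusted p = 0.945 and 0.629), with each library at or under 0.34 FPKM. SPRED1 and its partner NF1 were at 9.33 ± 0.664 FPKM (SD, n = 4) and 31.34 to 38.38 FPKM in the dox+ libraries, and at 10.1 ± 1.01 FPKM (SD, n = 3) and 18.35 to 22.69 FPKM in the transduced dox- libraries. NF1 in parental cells was at 20.77 and 21.83 FPKM, inside the range of the dox- libraries, while FOSL1 and CCND1 in parental cells were below it.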
